A study of Mus musculus with 12 samples.

Results

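Untreated BNL CL.2 cells, a line established from mouse embryonic liver, were profiled on the 3 arrays of the group called alone, out of 12 arrays in the series. In that group the insert above the BNL CL.2 cells held further BNL CL.2 cells, and no iron was added. The other 3 groups of 3 arrays each, which share the line and its medium, had ferric ammonium citrate (FAC, an iron salt) at 100 micromolar, RAW 264.7 cells (a mouse macrophage line) in the insert, or FAC together with RAW 264.7 cells. Culture lasted 24 h, and the profiled RNA was that of the BNL CL.2 cells, an established line and not fresh liver. No comparison between groups was made. The 3 arrays were described gene by gene, and the 9 other arrays served only to ask which differences between replicates recur with the replicate number.

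The liver makes most plasma proteins, stores iron in ferritin, and sets systemic iron uptake through hepcidin, a secreted peptide that removes the iron exporter ferroportin from cell surfaces. Hepatocytes owe this repertoire to a network of transcription factors that includes Hnf4a, Foxa2 and the C/EBP family. They also make cholesterol, fatty acids and lipoproteins. Lines derived from liver often keep only some of these traits, so the genes that a line does express set what can be studied in it.

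All values are log2 signals of 18194 genes, each represented by the probe set whose mean over the 12 arrays was highest. Probe sets bind their targets with different strength. The order of levels between genes is therefore an order of signals and not of RNA amounts, and in whole cultures fewer cells with a transcript cannot be told apart from less of it in each cell. The 3 arrays had medians between 5.64 and 5.66 and correlated pairwise at 0.998 across genes, which are not independent replicates. The number of arrays limits the precision, and no label says that the 3 came from separate cultures. The 3' minus 5' signal difference of the Actb control probe sets, a measure of RNA integrity, was 0.36 in replicate 1, 0.36 in replicate 2 and 0.41 in replicate 3.

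Gene levels formed 2 humps, and the zone between them held the fewest genes from 6.5 to 7.0. Gene means ran from 2.61 to 14.54 with a median of 6.81. As a yardstick for signal without a known target, 39 olfactory receptor genes had means from 3.48 to 6.03. A gene was called above background where each array exceeded the 95th percentile of those 39 genes on the same array, which was 5.26 in replicate 1, 5.23 in replicate 2 and 5.37 in replicate 3. By that rule 11850 genes, 65.1% of all, were above background. A stricter reading counts genes with a mean of at least 7.0, the upper end of the sparse zone, and gave 8870 genes or 48.8%. Levels of 12 or more were found for 894 genes. The 3 arrays were close, with a median SD of 0.09 over all genes. The choice of probe set bore on the calls: of 602 named or listed genes above background, 179 were not with the probe set of the lowest mean.

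**Figure D1:**
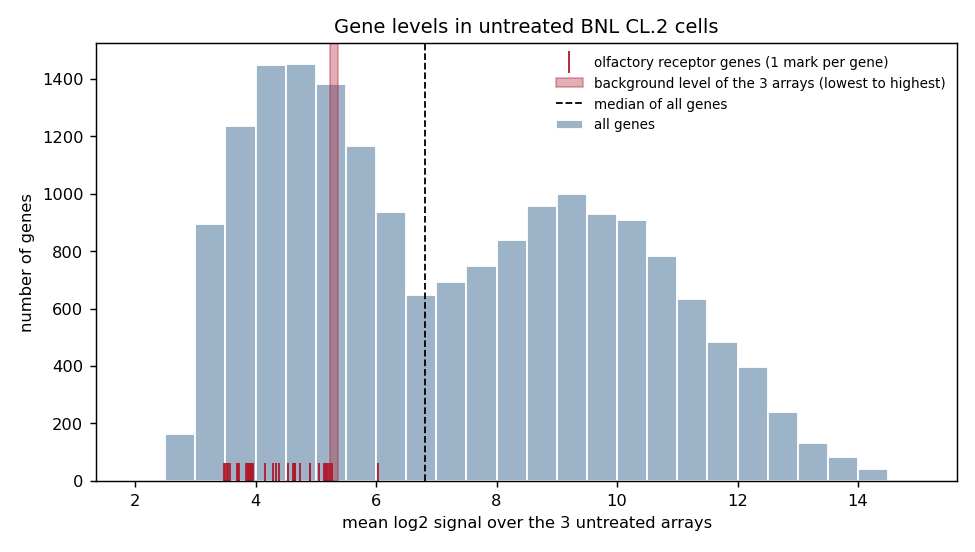
Number of genes by mean log2 signal over the 3 untreated arrays, in bins of 0.5, with red marks for the 39 olfactory receptor genes and a band for the background levels of the 3 arrays (5.23 to 5.37). The distribution has 2 humps, and the median of all genes, 6.81, lies in the zone between them.

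The strongest signals came from translation and the cytoskeleton. Ribosomal protein genes made up 16 of the 30 highest genes and 34 of the highest 100, led by Rpl41 with 14.56, 14.53 and 14.53 in replicates 1 to 3. Eef1a1, a translation elongation factor, and Pabpc1, the poly(A) binding protein, stood beside them at 14.42 and 14.26. Actb and Actg1, the cytoplasmic actins, had means of 14.46 and 14.24, and Tmsb10, an actin-binding thymosin, 14.45. S100a6, a calcium-binding protein, reached 14.47, and the galectins Lgals1 and Lgals3, which bind sugars on glycoproteins, 14.44 and 14.39. Fth1, the heavy chain of ferritin, ranked 14 of 18194 genes. No secreted plasma protein was among the 30. Probe sets that name several genes are outside this ranking, and some read as high. The set shared by Prl2c2, Prl2c3 and Prl2c4, placental hormones, had a mean of 14.46, and another that names Rpl23 had 14.50. With the mean of all probe sets of a gene in place of the highest, 59 of the highest 100 genes stayed among the highest 100.

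Of the filaments that mark cell lineage, the line carried epithelial keratins together with Vim. Krt8, a keratin of simple epithelia that hepatocytes also make, read 14.29, 14.26 and 14.34, and its partner Krt18 14.18, 14.09 and 14.11. Vim, the filament of mesenchymal and many cultured cells, read 14.24, 14.12 and 14.13. All 3 genes were within the 30 highest on a scale where the SD between arrays was at most 0.07. Vim is a single member of the list of 28 mesenchymal and stellate markers, of which 15 were not above background (list median 5.20).

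Most classical products of the hepatocyte were at background. Of 29 measured hepatocyte secreted proteins, 9 were above background (31.0%, against 65.1% of all genes) and 3 had a mean of at least 7.0, with a list median of 4.70 against 6.81 for all genes. Albumin (Alb), the main plasma protein of adult liver, read 5.08, 5.26 and 5.24, so that it exceeded the background level in replicate 2 alone. Fga, Fgb and Fgg, the 3 chains of fibrinogen, had means of 3.51, 4.35 and 3.59. Ahsg, Rbp4, Serpinc1 and F2, which encode fetuin, the retinol carrier, antithrombin and prothrombin, lay between 3.49 and 4.99.

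The 3 secreted proteins at 7.0 or more were Apob, Afp and Hpx. Apob, the structural protein of low and very low density lipoproteins, read 11.14, 12.09 and 12.07. Afp, the fetal counterpart of albumin, read 8.30, 8.88 and 9.10. In both genes replicate 1 was the lowest array. Hpx, which carries free heme in plasma, read 7.97, 6.45 and 6.71, with replicate 1 the highest. Ttr, the thyroxine carrier, was at 6.55, 6.44 and 6.51, below the median of all genes. Of the 5 probe sets of Afp the weakest had a mean of 3.64, so its call rests on the choice of probe set.

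Enzymes of hepatocyte metabolism followed the same pattern, with 10 of 31 above background (32.3%, against 65.1% of all genes). Of these, 6 were at 7.0 or more, and the list median was 4.58. Aldh1a1, which oxidises retinal, had the highest level of the list at 12.43, 13.10 and 12.91, and its close copy Aldh1a7 read 7.64, 8.80 and 8.13. Asl, which splits argininosuccinate in the urea cycle, had a mean of 9.26 and Khk, which phosphorylates fructose, 8.20. The other urea cycle genes measured, Cps1, Otc, Ass1 and Arg1, lay at 4.29, 3.73, 3.95 and 4.77. For Ass1, however, another probe set that also names the gene Gm5424 read 6.51, 6.60 and 6.62, so its level is uncertain. Genes of gluconeogenesis were not above background, with Pck1 at 3.74, G6pc at 3.69 and Fbp1 at 4.15. The drug-metabolising Cyp2e1 (4.90, 5.06 and 5.04) and Cyp3a11 (mean 3.36) were also not above background.

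Bile acid genes were above background in 6 of 18 cases (33.3%, against 65.1% of all genes), 2 of them at 7.0 or more. Those 2 were export pumps of the basolateral membrane, Abcc4 (10.98, 11.57 and 11.55) and Abcc3 (9.82, 9.87 and 9.94). Cyp7a1, the rate-limiting enzyme of bile acid synthesis, had a mean of 4.22, and Slc10a1, the bile acid importer NTCP, 4.34. Abcb11, the canalicular bile salt pump, read 5.31, 5.09 and 5.36 and did not pass on every array. The list median was 4.89.

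Of 27 liver transcription factors 20 were above background (74.1%, against 65.1% of all genes) and 13 were at 7.0 or more. The list median was 6.31, under the 6.81 of all genes, so as a list these genes stood near all others, while some members had high levels. Hnf4a, a nuclear receptor that controls much of the hepatocyte program, read 10.75, 10.46 and 10.46. Foxa2, which opens chromatin at liver genes, read 11.12, 11.06 and 11.16, and Foxa1 9.87, 10.08 and 9.87. Hnf4a and both Foxa genes were thus above the median of all genes by more than 3 on each array. Cebpb, a regulator of the acute phase, had a mean of 12.41 and Cebpa, a regulator of the mature hepatocyte, 7.76. Hhex and Gata6, which act early in liver development, had means of 10.45 and 9.71, and Yap1, the Hippo pathway coactivator, 11.40. Prox1 (3.37), Onecut1 (4.83) and the xenobiotic receptors Nr1i2 (4.46) and Nr1i3 (4.22) were not above background.

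Genes of fetal liver and of imprinted regions were above background in 10 of 15 cases (66.7%, near the 65.1% of all genes). Of these, 4 were at 7.0 or more, and 4 of 15 were above background with the lowest probe set of each gene. Hmga2, a chromatin protein of embryonic tissue, read 12.24, 11.87 and 11.68. The RNA-binding protein Igf2bp1 had a mean of 7.54 and the receptor Igf2r, which clears Igf2, 8.60. Igf2 itself, a fetal growth factor, was at 5.67, and Dlk1, a surface protein of hepatoblasts, was not above background at 4.91.

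Of 23 acute phase and complement genes 14 were above background (60.9%, near the 65.1% of all genes), 6 of them at 7.0 or more. Il1rn, the secreted antagonist of interleukin 1, read 10.57, 10.83 and 10.60. Cp, the ferroxidase ceruloplasmin, read 9.73, 10.45 and 10.76, but the weakest of its 8 probe sets had a mean of 4.44. C2, a complement protease, had a mean of 8.62. Saa1, Saa2, Orm1 and Crp, acute phase proteins of liver, lay between 3.74 and 4.41, although Saa1 and Saa2 are near-identical genes whose probe sets may not separate them. Saa3 was above background at 5.84, 6.14 and 6.59.

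**Figure D2:**
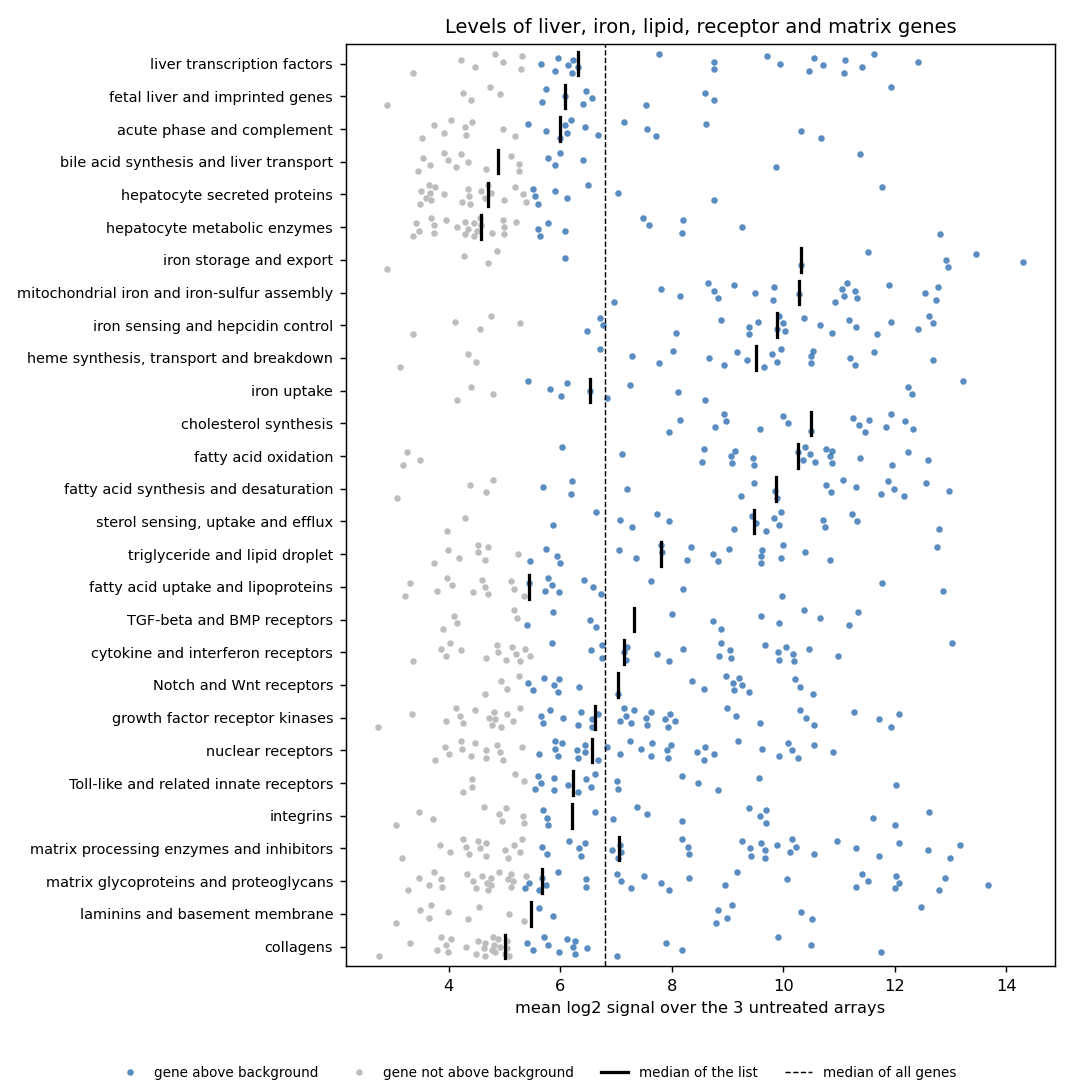
Mean log2 signal over the 3 untreated arrays of each gene in the liver, iron, lipid, receptor and matrix lists, 1 point per gene, blue where above background. Black bars are list medians, which run from 4.58 for hepatocyte metabolic enzymes to 10.50 for cholesterol synthesis, and the dashed line is the median of all genes, 6.81.

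Promoter sequences from RefSeq (build GRCm38.p6) differed with level. Windows from 250 bases before to 50 after the start were used for the 11721 of 18194 genes with 1 listed start. Genes not above background had a median of 6 CG dinucleotides per window, those above background but under 10 had 20, those from 10 to under 12 had 23, and those at 12 or more had 24. The medians were 4 CG for 21 hepatocyte secreted proteins and 4 for 24 hepatocyte enzymes, near the class that is not above background. The 250 bases before the start of 3 genes show this range, with CG in capitals. Glrx5, a mitochondrial iron-sulfur gene with a mean of 12.73, has 21 CG in this stretch (chr12:105032368-105032617, plus strand), Alb 2 (chr5:90460620-90460869, plus strand), and the highly expressed Krt8 only 3 (chr15:102004343-102004592, minus strand).
Glrx5: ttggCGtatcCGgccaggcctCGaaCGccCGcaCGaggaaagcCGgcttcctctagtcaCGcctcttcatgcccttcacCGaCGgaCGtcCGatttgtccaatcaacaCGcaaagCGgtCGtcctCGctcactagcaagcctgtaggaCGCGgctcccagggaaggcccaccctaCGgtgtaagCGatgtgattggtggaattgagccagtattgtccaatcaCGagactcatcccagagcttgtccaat
Alb: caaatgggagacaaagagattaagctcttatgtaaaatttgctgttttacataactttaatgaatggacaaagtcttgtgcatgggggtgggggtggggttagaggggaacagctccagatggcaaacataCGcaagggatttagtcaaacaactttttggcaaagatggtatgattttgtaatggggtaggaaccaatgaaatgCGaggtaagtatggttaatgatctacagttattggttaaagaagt
Krt8: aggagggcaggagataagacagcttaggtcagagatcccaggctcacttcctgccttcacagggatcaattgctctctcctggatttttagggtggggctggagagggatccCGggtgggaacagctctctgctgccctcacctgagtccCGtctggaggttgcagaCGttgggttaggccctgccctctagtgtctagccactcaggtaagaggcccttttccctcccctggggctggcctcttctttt
A CG-poor promoter thus went with a background signal for Alb and with a very high signal for Krt8, so the relation holds for classes of genes and not for each gene.

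Iron genes were above background in 100.0% of the mitochondrial list, 86.4% of the heme list, 81.5% of the list of sensing and hepcidin control, 80.0% of the uptake list and 63.6% of the storage and export list, against 65.1% of all genes. Tfrc, the transferrin receptor, read 13.28, 13.29 and 13.11 and ranked 180 of 18194 genes. Steap2, an endosomal metalloreductase that reduces ferric iron, and its family member Steap1 had means of 12.31 and 12.24. Slc11a2, which carries ferrous iron out of endosomes, had 8.59, and Slc39a14, an importer of iron not bound to transferrin, 8.12. Tfr2, the second transferrin receptor and a hepatocyte iron sensor, was near the median of all genes at 6.47, 6.45 and 6.68. Slc39a8 (4.14) was not above background. Of the 15 uptake genes 12 were above background, 6 reached 7.0, and 6 were above background with the lowest probe set of each gene.

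Storage was high and export was at background. Fth1 read 14.23, 14.32 and 14.33. The iron chaperones Pcbp1 and Pcbp2, which load ferritin, had means of 13.45 and 12.92, and Ncoa4, the receptor that sends ferritin to lysosomes, read 11.37, 11.56 and 11.61. Slc40a1, which encodes ferroportin, the only known iron exporter of mammalian cells, read 4.70, 4.74 and 4.66. Heph, a ferroxidase that works with ferroportin in gut, was at 2.90, while the ferroxidase Cp was expressed as given above. Ferroportin was thus below the background level on all 3 arrays.

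The hepcidin gene Hamp was not above background, while most genes listed for iron sensing and hepcidin control were. Hamp read 4.84, 4.66 and 4.75, whereas Hamp2, a close mouse copy of hepcidin, read 6.65, 6.43 and 6.34; the 2 genes are near-identical, so their signals are uncertain. Of 27 genes of iron sensing and hepcidin control 22 were above background. The bone morphogenetic protein (BMP) branch was represented by the receptors Bmpr2 (10.66), Acvr1 (10.37) and Bmpr1a (9.93), the signal transducers Smad1 (11.30), Smad4 (11.94) and Smad5 (9.55), and the target Id1, which read 12.91, 12.68 and 12.46. The ligand Bmp4 had a mean of 9.89, but Bmp6 (4.55) and Bmp2 (3.36), the ligands best known for hepcidin control, were not above background. Of the co-receptors, Neo1 had 11.18 and Hjv, hemojuvelin, 5.28, which was not above background. Hfe, mutated in hereditary hemochromatosis, was at 4.11. Tmprss6, a protease that dampens the pathway, read 6.65, 6.81 and 6.87.

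The intracellular iron sensors were expressed. Aco1 and Ireb2, the iron regulatory proteins that bind ferritin and transferrin receptor mRNAs, had means of 11.68 and 10.00, and Fbxl5, which degrades Ireb2 when iron is plentiful, 10.03. Aco1 read 11.68 on each of the 3 arrays. The weakest of its 3 probe sets had a mean of 4.82.

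All 21 mitochondrial iron and iron-sulfur genes were above background, and their median was 10.29. Hspa9, a chaperone of cluster transfer, had 12.77, Glrx5, which carries clusters, read 12.82, 12.68 and 12.70, and Nfs1, the cysteine desulfurase, had 11.09. The mitochondrial iron importers Slc25a28 and Slc25a37 had 9.49 and 9.12. None of the 21 varied by 0.5 or more between the arrays. Of 22 heme genes 19 were above background, from Pgrmc1 (12.69) to Ppox (6.71). Alas1, the first enzyme of heme synthesis outside erythroid cells, had 9.66, while the erythroid form Alas2 was not above background at 4.34. Hmox1, the inducible heme oxygenase, read 8.94, 9.43 and 9.12, and Flvcr1, a heme exporter, had a mean of 11.29.

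Lipid synthesis was strongly represented, while fatty acid transport proteins of adult liver were not. All 17 genes of cholesterol synthesis were above background (100.0%, against 65.1% of all genes) with a median of 10.50. The highest signals were Ebp (12.38, 12.14 and 12.44) and Hmgcs1 (12.03, 12.03 and 12.49), which act in the late and early steps of the pathway. The genes shared an order between arrays: 16 of 17 were highest in replicate 3 and 15 of 17 lowest in replicate 2, against 6573 and 6464 of all 18194 genes. Mvd, which makes isopentenyl diphosphate, read 7.82, 7.59 and 8.44, and Lss, lanosterol synthase, 9.54, 9.26 and 9.92. Cyp51, which demethylates lanosterol, read 10.08, 9.75 and 10.42. The sterol-regulated transcription factor Srebf2 had a mean of 9.95 and its inhibitor Insig1 read 8.85, 8.85 and 9.65.

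The promoters of the cholesterol genes also shared letters. Of 12 with a listed single start, 12 held CCAAT on either strand, against 38.7% of all 11721 windows, and 12 held GGGCGG, against 54.5%. None held TATAAA, against 10.2%. For genes with levels from 10 to under 12, the range of this list's median, the shares were 39.6%, 70.9% and 5.6% in that order. At such shares few or none of 12 windows would hold TATAAA. Among the other motifs searched, GGGNNNNNCC (N is any base) was also held by 12 of 12, against 62.5% of all windows. TGCNCNC was held by 4 (33.3%), against 57.1%. A count of 12 of 12 was thus not particular to CCAAT and GGGCGG. The 250 bases before the start of Mvd (chr8:122443423-122443672, minus strand), Cyp51 (chr5:4104698-4104947, minus strand) and Lss (chr10:76531355-76531604, plus strand) are shown because these genes shared that order, with CCAAT or its reverse complement ATTGG in capitals. CCAAT is the core of the sequence that the factor NF-Y binds.
Mvd: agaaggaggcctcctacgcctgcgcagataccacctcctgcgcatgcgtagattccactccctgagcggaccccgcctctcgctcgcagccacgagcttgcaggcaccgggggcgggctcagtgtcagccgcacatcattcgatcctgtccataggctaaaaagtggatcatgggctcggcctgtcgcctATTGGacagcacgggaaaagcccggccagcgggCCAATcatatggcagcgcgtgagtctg
Cyp51: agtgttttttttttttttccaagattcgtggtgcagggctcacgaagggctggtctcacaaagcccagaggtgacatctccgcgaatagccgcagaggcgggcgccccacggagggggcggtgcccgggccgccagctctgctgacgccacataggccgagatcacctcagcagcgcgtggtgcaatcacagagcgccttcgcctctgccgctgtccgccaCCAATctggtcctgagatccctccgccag
Lss: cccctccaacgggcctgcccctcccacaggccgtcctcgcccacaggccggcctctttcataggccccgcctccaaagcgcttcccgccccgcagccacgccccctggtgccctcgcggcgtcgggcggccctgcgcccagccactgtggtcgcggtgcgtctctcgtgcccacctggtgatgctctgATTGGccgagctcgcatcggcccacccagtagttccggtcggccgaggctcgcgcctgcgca
There are 2 matches in Mvd, 1 on each strand, and 1 each in Cyp51 and Lss. A match is a run of letters and not a measured binding site.

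Fatty acid synthesis was above background in 18 of 22 genes (81.8%, against 65.1% of all genes), 11 with the lowest probe set of each gene. The highest array was replicate 3 for 18 of 22. Acly and Fasn, which make cytosolic acetyl-CoA and palmitate, had means of 12.17 and 11.07. The desaturase Scd2 read 12.79, 12.77 and 13.35, whereas Scd1, the main form in adult liver, read 4.40, 4.28 and 4.45. Scd1 was thus below background on each array. Elovl6, which extends palmitate, read 9.67, 9.68 and 10.32. Mlxipl, the carbohydrate response factor ChREBP, was at 4.79.

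Fatty acid oxidation was above background in 22 of 25 genes (88.0%, against 65.1% of all genes) with a median of 10.27. Cpt1a, the liver carnitine palmitoyltransferase, read 10.18, 10.56 and 10.34, and Hadh and Acadl, enzymes of the mitochondrial spiral, had means of 12.59 and 12.23. The peroxisomal enzyme Ehhadh (3.25), the ketone enzyme Bdh1 (3.48) and the kinase Pdk4 (3.19) were not above background. Of 29 triglyceride and lipid droplet genes 21 were above background (72.4%, against 65.1% of all genes). The droplet coat protein Plin2 led them at 12.89, 12.77 and 12.62. The lipase Pnpla2 had 8.27 and its inhibitor G0s2 was not above background at 3.74.

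Fatty acid uptake and lipoprotein genes were above background in 13 of 25 cases (52.0%, against 65.1% of all genes), 5 of them at 7.0 or more. Fabp5, an epidermal form of fatty acid binding protein, read 12.89, 12.83 and 12.85, while Fabp1, the liver form, read 3.66, 3.85 and 3.84. The scavenger receptor Cd36 (3.22), lipoprotein lipase Lpl (4.44) and Apoe (3.98), a lipoprotein ligand abundant in liver, were at background. Apob was accompanied by Mttp, which loads it with lipid, at 6.47, 6.40 and 6.40. Angptl4, a secreted inhibitor of lipoprotein lipase, read 10.20, 10.19 and 9.57.

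Of the receptor lists, 4 lay near the share of all genes above background, 65.1%: 67.4% for growth factor receptor kinases, 62.2% for cytokine receptors, 62.5% for integrins and 70.5% for nuclear receptors. Among 46 growth factor receptor kinases 31 were above background, and 17 with the lowest probe set of each gene. Met, the hepatocyte growth factor receptor, read 11.999, 12.03 and 12.20. Egfr, which binds epidermal growth factor, read 10.47, 10.23 and 10.53, and Axl, the Gas6 receptor, 11.78, 11.70 and 11.68. Insr and Igf1r, the insulin and insulin-like growth factor receptors, had means of 7.97 and 9.14. The mesenchymal receptors Pdgfra (4.47) and Pdgfrb (4.78), the stem cell factor receptor Kit (4.12) and Fgfr1 (4.20) were not above background. For Egfr and Axl the weakest probe sets had means of 3.67 and 2.96.

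Cytokine receptors were above background in 23 of 37 cases. Tnfrsf12a, the receptor of TWEAK, read 13.16, 12.95 and 12.96. The interferon gamma receptor chains Ifngr1 and Ifngr2 had means of 10.98 and 9.91, Tnfrsf1a, a receptor of tumor necrosis factor, 10.18, and Ghr, the growth hormone receptor of liver, 10.20. The interleukin 6 receptor was present with its signalling chain Il6st at 8.99, 8.87 and 9.30 and its binding chain Il6ra at 6.56, 6.53 and 6.59. Il6ra was below the median of all genes on each array. Il1r1 had 7.73, but its partner Il1rap (4.66), the oncostatin M receptor Osmr (5.13) and the leukemia inhibitory factor receptor Lifr (4.86) were not above background.

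The chain of genes that senses bacterial lipopolysaccharide was expressed. Cd14, which presents lipopolysaccharide, read 12.02, 11.94 and 12.13, Tlr4 8.76, 8.95 and 8.78, its partner Ly96 8.44, 8.57 and 8.43, and the adaptor Myd88 9.66, 9.48 and 9.54. These 4 genes exceeded the median of all genes on each array. Tlr3, which senses double-stranded RNA, had a mean of 8.18, while Tlr5, Tlr7, Tlr8 and Tlr13 were not above background. Of 22 genes of this list 17 were above background (77.3%, against 65.1% of all genes) and 7 were at 7.0 or more.

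Of 18 receptors of TGF-beta and BMP ligands 13 were above background (72.2%, against 65.1% of all genes), and 6 with the lowest probe set of each gene. Tgfbr2 read 11.24, 11.18 and 11.62 and Tgfbr1 had a mean of 9.60, so both chains of the TGF-beta receptor were expressed. Bmpr1b (3.89) and the decoy Bambi (5.17) were not above background. Of 23 Notch, Wnt and Hedgehog receptors 19 were above background (82.6%, against 65.1% of all genes), 12 of them at 7.0 or more. With the lowest probe set of each gene 7 were above background. Fzd6 had a mean of 10.54, Smo 10.30, Lgr4 10.20 and Notch2, the Notch of bile duct formation, 9.38. Lgr5, a Wnt target of progenitor cells, read 5.19, 5.29 and 5.29 and did not pass on every array.

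Nuclear receptors were above background in 31 of 44 cases, 20 of them at 7.0 or more and 18 with the lowest probe set of each gene. Nr3c1, the glucocorticoid receptor, read 10.27, 10.34 and 10.19. Pparg, better known from fat cells, read 10.15, 10.16 and 9.93, while Ppara, the form that dominates in liver, read 5.97, 5.94 and 5.95. Ppara thus stayed below the median of all genes. Nr1h3 (LXR alpha) had 7.07, Nr1h4 (the bile acid receptor FXR) 6.31, and the estrogen receptor Esr1 was not above background at 4.04, 3.92 and 4.04.

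Integrins were above background in 15 of 24 cases. Itgav, Itga6 and Itgb1, chains of receptors for vitronectin, laminin and many matrix proteins, had means of 12.62, 11.99 and 11.62. Itgb4, which pairs with Itga6 in epithelial hemidesmosomes, read 10.18, 9.30 and 9.61. The leukocyte chain Itgam was at 3.72.

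Basement membrane collagens were expressed, and the main chains of fibrillar collagen were at or near background. Of 39 collagen genes 16 were above background (41.0%, against 65.1% of all genes), 6 of them at 7.0 or more and 8 with the lowest probe set of each gene. Col4a1, the main chain of basement membrane collagen, read 11.65, 11.80 and 11.82, with Col4a2 at 9.88, 9.79 and 10.06. Col18a1, which yields endostatin, read 10.60, 10.47 and 10.40. The fibrillar chains Col1a1 (4.82) and Col3a1 (4.31) were not above background, and Col1a2 exceeded it narrowly at 5.34, 5.37 and 5.52. Laminin chains were split, with Lamb3 (10.51), Lamc1 (9.08), Lamb2 (8.83) and Lama5 (8.79) expressed, and Lama1 (3.65), Lamb1 (3.99) and the nidogens Nid1 (5.35) and Nid2 (3.49) not above background. Sparc, a collagen-binding glycoprotein, had 12.47, and 9 of 18 genes of that list were above background.

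Of 47 matrix glycoproteins and proteoglycans 27 were above background (57.4%, against 65.1% of all genes). Efemp1, the matrix protein fibulin-3, read 13.66, 13.71 and 13.64. Sdc1, the main syndecan of epithelia, had a mean of 12.89, Ccn2, the connective tissue growth factor, 12.79, and Cd44, the hyaluronan receptor, 12.08. Fn1, fibronectin, read 8.38, 8.36 and 8.19, and the weaker of its 2 probe sets had a mean of 3.62. Dcn (5.15), Lum (3.66), Postn (4.32) and Tnc (3.88), products of matrix-forming fibroblasts, were not above background. Of 46 matrix processing genes 31 were above background (67.4%, near the share of all genes). The inhibitors Timp2 and Timp1 had means of 13.17 and 11.30. The collagenase Mmp13 read 11.32, 12.42 and 11.41, the stromelysin Mmp3 9.07, 10.18 and 8.96, and Mmp14, a membrane protease, 9.85, 9.93 and 9.87. Mmp2 (5.07) and the cross-linking enzyme Lox (4.67) were not above background.

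Marker lists were mixed, and high levels of some members stood beside others at background. Of 17 biliary and epithelial markers 12 were above background (70.6%, against 65.1% of all genes). Cdh1, the cadherin of epithelia, read 12.70, 12.80 and 12.70, and Krt19, a keratin of bile ducts, 13.54, 13.28 and 13.49. Epcam, an adhesion protein of ducts and progenitors, had 6.75, and Cldn4, Cldn7 and Esrp1 were not above background. Of 28 mesenchymal and stellate markers 13 were above background (46.4%), 7 of them at 7.0 or more and 6 with the lowest probe set of each gene, and the list median was 5.20. Vim, Cdh2 and Zeb1 were among the members with the highest levels. Cdh2, the cadherin of mesenchyme that hepatocytes also carry, read 11.96, 12.12 and 12.01, and Zeb1, a repressor of Cdh1, 9.55, 9.47 and 9.53. Lrat and Reln, markers of stellate cells, were at 3.85 and 4.02.

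**Figure D3:**
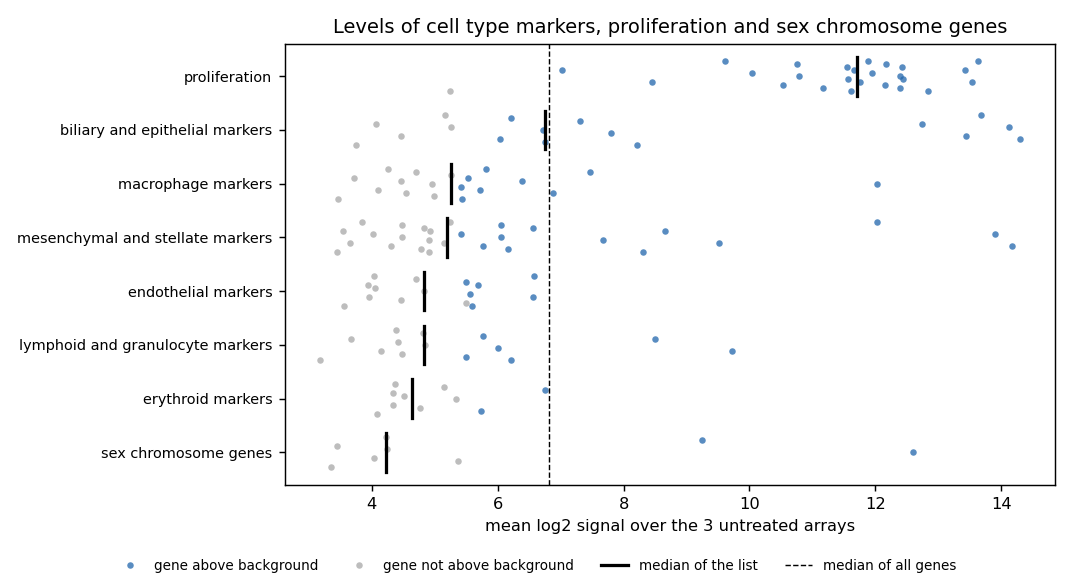
Mean log2 signal over the 3 untreated arrays of each gene in the marker lists, 1 point per gene, blue where above background, with black bars at list medians and a dashed line at the median of all genes. Proliferation genes have a median of 11.70, and the lists for vessel and erythroid cells have no gene above the dashed line at 6.81.

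Endothelial markers were above background in 6 of 15 cases (40.0%, against 65.1% of all genes), 3 with the lowest probe set of each gene. None was at 7.0 or more, and the defining Pecam1 (4.04) and Cdh5 (4.46) were not above background. Macrophage markers were above background in 9 of 19 cases (47.4%), 5 with the lowest probe set of each gene and 2 at 7.0 or more, Cd14 and Cd53. The defining genes Ptprc (3.47), Adgre1 (4.96), Itgam and Tyrobp (4.47) were not above background. Erythroid markers were above background in 2 of 10 cases. Hemoglobin probe sets that name several genes are not in that count: the beta globin set read 7.79, 7.80 and 7.88, and of 3 shared by Hba-a1 and Hba-a2 1 read 7.21, 7.15 and 7.36 while the others had means of 4.92 and 4.08. In the list of lymphoid and granulocyte markers 6 of 14 were above background (42.9%). The 2 at 7.0 or more were the calprotectin genes S100a8 (9.51, 9.71 and 9.94) and S100a9 (9.03, 7.22 and 9.24), which inflamed epithelia also express. Of 26 proliferation genes 25 were above background (96.2%), among them the cyclin Ccnd1 (13.63), Pcna (13.54) and Mki67 (12.15). Of 8 sex chromosome genes, the X-linked Eif2s3x (12.59) and Kdm6a (9.25) were above background. Xist, the RNA of the inactive X, read 5.20, 5.38 and 5.53, and the Y-linked Kdm5d, Uty and Eif2s3y lay between 3.345 and 4.24.

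A range between the highest and the lowest array of at least 1, a 2-fold difference, was reached by 51 genes, 0.28% of all, of which 39 were above background. The smallest range counted was 1.004 for Cth and the largest not counted 0.992 for Gsto2. Replicate 1 was the lowest array for 34 of the 51 genes and replicate 2 the highest for 25. Without replicate 1 of the untreated group 10 genes reached a range of 1, without replicate 2 29 genes, and without replicate 3 32. The Actb 3' minus 5' difference given above was highest in replicate 3, and its part in these ranges was not tested.

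Among these genes were chemokines, acute phase proteins, detoxifying enzymes and matrix proteases. Cxcl1, a neutrophil-attracting chemokine, read 11.09, 12.59 and 12.22. Ccl20, which attracts dendritic and T cells, read 8.19, 9.58 and 9.54, and Ccl2, the monocyte chemokine, 10.51, 11.57 and 11.47. Those 3 were lowest in replicate 1, whereas the chemokine Ccl5 was highest there at 6.77, 5.50 and 5.58. Gsta2, a glutathione transferase, read 8.26, 10.16 and 10.00 and Sult1c2, a sulfotransferase, 6.80, 8.11 and 8.47. Slc7a11, which imports cystine for glutathione, read 6.33, 7.44 and 7.24, and the weaker of its 2 probe sets had a mean of 4.73. Gsta2, Sult1c2 and Slc7a11 too were lowest in replicate 1. So were Ugt2b34, a glucuronosyltransferase, at 6.51, 7.57 and 7.84, Akr1c14, an aldo-keto reductase, at 6.57, 7.98 and 7.29, and Tgfb2, a TGF-beta ligand, at 8.15, 9.31 and 9.41. Serpinb9g read 7.30, 8.70 and 7.49 and Lancl3 4.67, 6.22 and 6.07.

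Other genes went the opposite way or followed another array. The histone genes H2bc18 (8.59, 6.84 and 6.26) and H3c11 (8.87, 7.86 and 6.91) were highest in replicate 1, and H2bc18 had the widest range, 2.33. Mt2, a metal-binding metallothionein, read 10.03, 8.97 and 8.73. Hpx, the cytokine Il24 (7.70, 6.82 and 6.19) and the stress-induced transcription factor Atf3 (8.36, 7.78 and 7.10) were also highest in replicate 1. S100a9 and Lcn2 (6.29, 5.29 and 6.65), a siderophore-binding acute phase protein, were lowest in replicate 2, while Mmp3, Mmp13 and Mmp10 (6.71, 7.72 and 6.80) were highest there. Ccn4, a matrix protein induced by Wnt signalling, read 7.15, 8.07 and 8.66. Among the listed genes Cp, Lcn2, Hpx, Aldh1a7, Fabp4, Ccn4, Mmp3, Mmp10, Mmp13 and S100a9 reached a range of 1, and no receptor did.

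**Figure D4:**
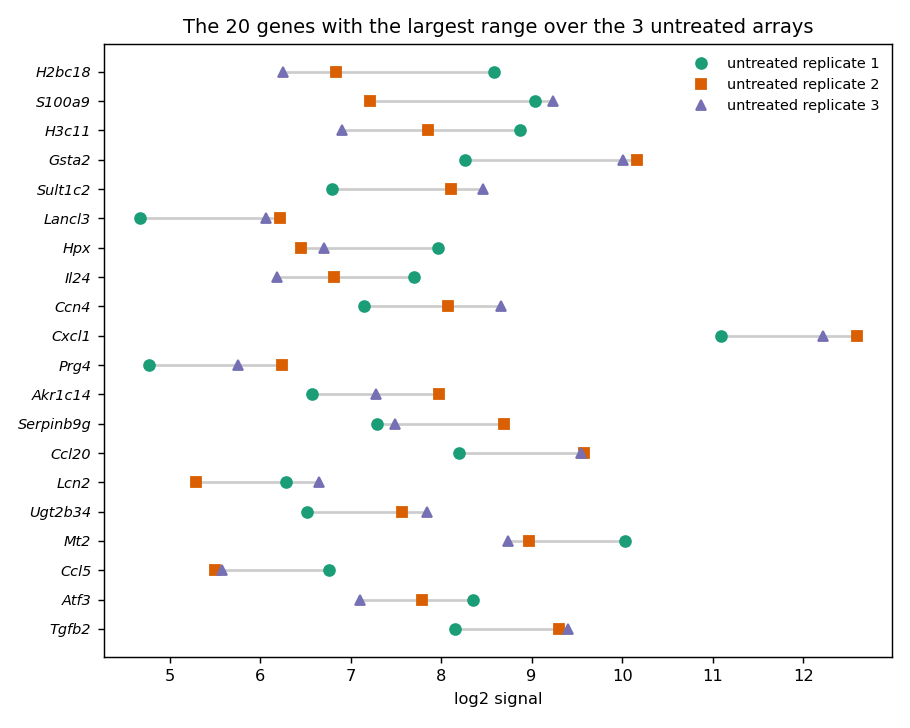
Log2 signal in untreated replicates 1, 2 and 3 for the 20 genes with the largest range among genes whose mean is above background. Replicate 1 is the lowest array for genes such as Cxcl1 and Gsta2 and the highest for H2bc18, which has the widest range, from 6.26 to 8.59.

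The promoters of the 35 such genes with 1 listed start had a median of 3 CG per window, against 17 for all 11721 windows, and 14 of them (40.0%) held TATAAA on either strand, against 10.2%. GGGCGG was found in 17.1%, against 54.5%. The 250 bases before the starts of Mmp13 (chr9:7272264-7272513, plus strand) and Cxcl1 (chr5:90890995-90891244, plus strand) are shown as examples of strongly expressed genes in this class. Capitals mark TATAAA, the letters of the TATA box, in Mmp13.
Mmp13: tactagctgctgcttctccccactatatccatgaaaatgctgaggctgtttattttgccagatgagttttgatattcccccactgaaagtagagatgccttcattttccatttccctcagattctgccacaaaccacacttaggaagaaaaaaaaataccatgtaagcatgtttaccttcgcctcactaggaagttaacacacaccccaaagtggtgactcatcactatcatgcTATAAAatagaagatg
In Cxcl1 they mark GGGNNNNNCC on either strand, a loose form of the letters that NF-kB binds, which 62.5% of all windows and 51.4% of the 35 hold.
Cxcl1: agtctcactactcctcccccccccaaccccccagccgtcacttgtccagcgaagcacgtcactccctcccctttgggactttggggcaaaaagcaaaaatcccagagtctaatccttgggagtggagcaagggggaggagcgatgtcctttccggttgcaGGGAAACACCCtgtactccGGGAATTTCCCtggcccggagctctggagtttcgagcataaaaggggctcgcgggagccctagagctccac
The 4 overlapping matches in Cxcl1 form 2 stretches.

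Whether such differences recur with the replicate number was tested in the 9 arrays of FAC, RAW 264.7 and RAW 264.7 with FAC, which the ranges did not use. In limma's moderated F test of the replicate number, with the group means in the model, 556 of 18194 genes (3.06%) had an adjusted p under 0.05. A gene was said to keep its order where the untreated array of the number that was highest in the 9 arrays lay above that of the number that was lowest. Of the 556 genes 537 kept their order (96.6%), against 68.5% of all genes and 77.2% of the 11850 genes above background. Of the 556, 514 were above background. Of the 51 genes with a range of at least 1 in the untreated arrays 36 were called (70.6%), and 51 of 51 kept the order. Sample titles give replicate numbers without saying what they stand for, and with no sign of separate cultures a p-value here reflects only how these 9 samples scatter.

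The smallest adjusted p was that of Cxcl1 (1.67e-05, limma), whose means for numbers 1, 2 and 3 in the 9 arrays were 11.29, 12.90 and 12.59. S100a9 had 8.93, 7.93 and 9.52 (adjusted p 0.000329, limma) and Hpx 8.15, 6.73 and 6.96 (adjusted p 0.000408, limma). The highest and the lowest number were the same in the untreated arrays for all 3 genes. Trib3, a stress-induced pseudokinase, read 8.08, 8.88 and 8.94 in the untreated arrays and had number means of 8.27, 9.60 and 9.25 (adjusted p 0.000329, limma). Cth, which makes cysteine, read 9.17, 9.88 and 10.17 and had 9.38, 10.50 and 10.41. The order of highest and lowest number in the 9 arrays, 2 and 1, held in the untreated arrays for both. The other genes among the 10 smallest p were Prg4, Sqor, Ccl20, Tff3 and Lypd6b, and 10 of 10 kept the order. The histone genes H2bc18 and H3c11, among the widest ranges in the untreated arrays, did not pass in the 9 others (adjusted p 0.417 and 0.105, limma). Their number means fell in the order of the untreated arrays, with 7.03, 6.62 and 6.30 for H2bc18 and 7.74, 7.63 and 6.76 for H3c11.

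Some lists held more called genes than the 3.06% of all genes. In iron sensing and hepcidin control 6 of 27 were called, namely Id1, Id2, Id3, Smad6, Smad7 and Bmper. Id1 had number means of 12.79, 12.47 and 12.22 (adjusted p 0.0246, limma), and its untreated arrays were also highest for number 1 and lowest for number 3. Of 29 hepatocyte secreted proteins 5 were called (Apob, Afp, Hpx, C9 and Kng1), and these 5 kept the order. Over the 29 genes, however, only 14 kept it (48.3%), against 68.5% of all genes. Kng1, with an untreated mean of 4.37, was not above background. Of 17 cholesterol genes 5 were called (Nsdhl, Hsd17b7, Lss, Tm7sf2 and Mvd). The order was kept by 16 of 17 (94.1%), against 68.5% of all genes and 77.2% of those above background. It concerns only the highest and lowest number of the 9 arrays. In Nsdhl, Hsd17b7, Lss and Mvd (means 8.09, 8.33 and 8.58) number 1 was lowest there, whereas replicate 2 was lowest in the untreated arrays. Tm7sf2 had number 2 lowest in both. Of 22 heme genes 4 were called, including Hmox1 with number means of 9.09, 10.09 and 9.57 (adjusted p 0.00219, limma). Tfrc was called with number means of 12.69, 12.49 and 12.03 (adjusted p 0.0371, limma), and number 3 was lowest in the untreated arrays too. In the lists of growth factor receptor kinases, nuclear receptors, mesenchymal, macrophage and endothelial markers, mitochondrial iron, and triglyceride genes 0 were called. Those lists have 15 to 46 genes, and at a share of 3.06% few or none would be called in each. A count of 0 is thus no sign that these genes were steadier than others.

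**Figure D5:**
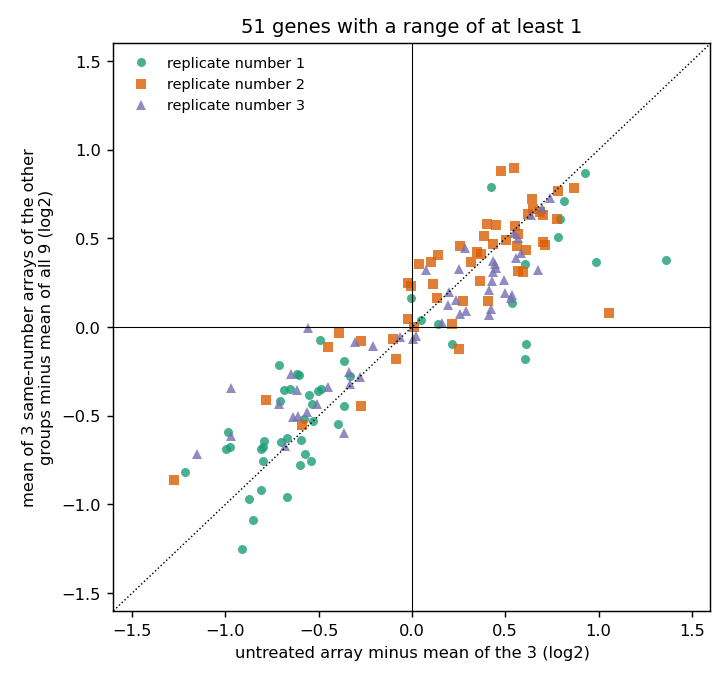
For the 51 genes with a range of at least 1, the deviation of each untreated array from the mean of the 3 (x axis, log2) against the mean deviation of the same-number arrays of the other groups from the mean of all 9 (y axis, log2). Points near the dotted line deviated alike, and for 51 of 51 genes the highest and lowest number of the 9 arrays were in the same order in the untreated arrays.

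The number of called genes rested on few arrays. It was 12 without the arrays of RAW 264.7 with FAC, 89 without FAC and 166 without RAW 264.7. Leaving out single arrays gave 100 (without RAW 264.7 with FAC replicate 1) to 547 (without RAW 264.7 replicate 1), and each of the 8 arrays other than that last moved the count by over 1.5 times. Across these settings 90.4% to 100.0% of the called genes kept their order in the untreated arrays. Over all genes, deviations from group means correlated at 0.28 to 0.51 between an untreated array and arrays of its own number (9 pairs) and at -0.35 to -0.03 with other numbers (18 pairs). Deviations within a group add up to 0, so positive values for the former make the latter negative.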

How the data were processed

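Total RNA of BNL CL.2 cells was hybridised to Affymetrix mouse arrays, 3 per group in 4 groups. The authors deposited log2 values made with affy and RMA, as the submitters' processing notes list them and per the labels; tool versions were not given in the sources used here. No further scaling was applied. RMA works across arrays and may bring their distributions together, so a shift shared by most genes would not show.

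Of 45101 probe sets, 34958 named 1 gene in the platform annotation, 932 several and 9211 none, and only those that named 1 gene were used. Each of 18194 genes was represented by the probe set whose mean over the 12 arrays was highest, a choice that concerned 9012 genes. At most 0.166% of values were identical between any 2 untreated arrays. Symbols of 18030 genes matched RefSeq.

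Levels and ranges in the 3 untreated arrays were described without a test. The replicate number, taken from the sample titles, was tested in the 9 other arrays with limma 3.58.1 in R 4.3.3 (lmFit, eBayes, moderated F test, Benjamini-Hochberg over 18194 genes, adjusted p under 0.05, 4.69 prior degrees of freedom). Tables and plots used Python 3.11.15 with pandas 2.3.3, numpy 2.4.6 and matplotlib 3.10.9. The fit was tested on simulated data of the same layout with shifts of 0.5 to 4 in a part of the 18194 genes. It recovered 100% of the shifted genes at each size but also called 20 unshifted genes. Without any shift it called 0.

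The 36 gene lists held 954 entries, of which 878 were measured (839 distinct genes). The genes named in the text were drawn from the 30 highest genes, in each list the 6 highest members and up to 6 not above background, the 20 genes with the largest range, list members with a range of at least 1, the 10 genes with the smallest p for the replicate number, and other list members with their values. Ccl2 and Slc7a11 were named after their values were seen. The untreated group, the lists and the tests were chosen with earlier results of these data known, among them that arrays of equal replicate number resemble each other. Promoter windows came from RefSeq, build GRCm38.p6, for 14369 genes, of which 11721 had 1 start. Motifs were searched on both strands over the 300 bases of each window.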

Additional observations from a re-analysis of the deposited data

How the results depend on the processing

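The number of genes above background, 11850, ran from 8453 with the lowest probe set of each gene to 12183 with the mean of the 3 arrays, and stayed within 1.5 times under every alternative, each left-out untreated array included. Of 909 named or listed genes, 495 had levels that moved by more than their SD with the lowest probe set, 4 with quantile normalization and 0 without an array; 233 of the 509 with several probe sets had probe sets over 2 apart. List counts moved by over 1.5 times with the lowest probe set in 12 of 36 lists (11 given beside their counts, and sex chromosome genes 1 of 8), in 17 with a mean of at least 7.0 (an alternative chosen after seeing the data), in 4 with the 99th percentile, in 3 with vomeronasal receptor genes and in 3 with the mean of all probe sets. Genes with a range of at least 1 numbered 51, a range of at least 0.5 was reached by 554, and leaving out an untreated array gave 10 to 32. The test of the replicate number, 556 genes, gave 1830 with a trend and robust moderation, 982 with array weights, 1183 among genes above background only, 89 without FAC, 166 without RAW 264.7, 12 without RAW 264.7 with FAC, and 100 to 547 without single arrays. The genes that kept their order, 537, then numbered 1756, 939, 1148, 84, 150, 12, and 99 to 495. Fewer arrays, or fewer genes tested, are part of these settings; otherwise the cause was not tested. Quantile normalization and the lowest probe set kept both counts within 1.5 times. At an unadjusted p under 0.05, 3772 genes passed. No paired analysis was possible because no comparison between groups was made; the replicate number was itself the term tested, and it served as no replicate block. With 3 arrays, small differences between them are not detectable.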

Other observations

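Probe sets that name several genes were left out of the levels above, and some of them gave strong signals. The light chain of ferritin, Ftl1, is named together with a pseudogene by a probe set that read 13.73, 13.91 and 13.87 in untreated replicates 1 to 3, and by a further probe set that read 13.74, 13.84 and 13.81. Another that also names microRNA genes read 10.37, 10.82 and 10.71. Replicate 1 was the lowest array in all 3. A probe set shared by the proliferin genes Prl2c2, Prl2c3 and Prl2c4, placental hormones of the prolactin family, read 14.45, 14.49 and 14.45 and cannot be assigned to 1 of them. Tyms, a DNA synthesis enzyme whose own probe set was not above background, is named with a pseudogene by a probe set that read 10.07, 10.25 and 10.10.

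Among the 51 genes with a range of at least 1 were products of stratified epithelia that none of the lists held. Sprr1b, a precursor of the cornified envelope, read 8.77, 9.34 and 8.21, Sprr2i 6.33, 7.55 and 6.62, and Ivl, involucrin, 8.68, 8.50 and 7.57. Ivl also differed with the replicate number in the 9 other arrays, with means of 8.60, 7.68 and 7.14 (adjusted p 0.00199, limma). The intestinal galectin Lgals4 read 9.69, 10.07 and 10.76. These genes were named after their values were seen.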
